A study of Mus musculus with 6 samples.

Results

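Small leucine-rich proteoglycans were examined in mouse chondrocytes, the cells that make cartilage matrix, with or without suppressed methylation of histone H3 lysine 9. The members were taken by gene symbol: Dcn (decorin), Bgn (biglycan), Aspn (asporin), Fmod (fibromodulin), Lum (lumican), Prelp (prolargin), Omd (osteomodulin), Kera (keratocan), Epyc (epiphycan) and Ogn (osteoglycin). All 10 were among the 35976 rows of the table of read counts. Of these, 9 passed the filter on low counts and were tested together with the other genes, 13761 in all, and Kera did not pass. The cells came from hind limb articular cartilage of embryos at day 18.5 on a mixed background of C57BL/6 and 129S4/SvJae, and they were grown on tissue culture plastic for 16 population doublings. Both groups carried an inducible transgene for the histone variant H3.3 and received doxycycline at 2 µg/ml throughout. In the H3K9M group (3 libraries, replicates 1, 3 and 5) the transgene had methionine in place of lysine 9 of the histone, and in the H3WT group (3 libraries, replicates 1, 2 and 4) it was wild-type H3.3. The labels do not say whether a library came from 1 animal or from pooled animals, nor whether the replicates were separate cultures, so the p-values measure the spread between these libraries, which may be technical.

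These proteins have a core of leucine-rich repeats that binds the surface of collagen fibrils, and most carry glycosaminoglycan chains (chondroitin, dermatan or keratan sulfate). They set the width and spacing of fibrils and hold growth factors in the matrix. In cartilage, fibromodulin, prolargin, decorin and biglycan are known as regular components of the matrix, epiphycan belongs to the growth zone, keratocan and lumican are best known from the cornea, and osteomodulin from bone. By sequence the family is grouped into class I (decorin, biglycan, asporin), class II (fibromodulin, lumican, prolargin, osteomodulin, keratocan) and class III (epiphycan, osteoglycin).

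Libraries held 15113675 to 19606082 counts. On the first principal component of all tested genes (35.5% of the variance) H3K9M replicate 3 (51.0) and H3WT replicate 2 (49.1) had close, high scores. H3WT replicates 1 (-56.2) and 4 (-51.5) had the lowest, so this component did not follow the groups. Only the counts of genes called, Prelp, Fmod, Dcn, Lum and Epyc are given below with and without that first pair of libraries. On the second component (28.8%) the groups were apart, with H3K9M at 19.0 to 39.8 and H3WT at -71.5 to -11.4, H3WT replicate 2 lying farthest out. The endogenous H3.3 genes do not check the labels, because gene counts do not show the changed codon. H3f3a stood at 801 ± 52.5 CPM (counts scaled to a common library size) in H3K9M, and at 840 ± 95.3 CPM in the H3WT libraries (SD, n = 3 each). Markers of chondrocytes had a summed level of 6141 to 9947 CPM over 13 genes in H3K9M and 6083 to 17279 CPM in H3WT. Col2a1 made up most of each sum, and Snorc had 0 counts in replicate 1 of both groups. In bulk RNA, fewer cells of a type and less RNA per cell cannot be told apart.

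Biglycan transcripts made up most of the family in all 6 libraries. Per kilobase of the longest annotated transcript, which makes levels of different genes comparable, Bgn stood at 1279 ± 158 CPM per kilobase in H3K9M and 1325 ± 161 CPM per kilobase in H3WT (SD, n = 3 each, as below). Fmod followed with 223 ± 52.7 and 423 ± 149 CPM per kilobase, Ogn with 171 ± 15.1 and 198 ± 90.8, and Prelp with 32.3 ± 8.03 and 163 ± 62.3. Lower down came Aspn (44.9 ± 15.5 and 43.9 ± 18.4 CPM per kilobase), Lum (33.7 ± 23.5 and 31.4 ± 8.42) and Dcn (21.1 ± 14.5 and 18.7 ± 10.9), then Omd (6.30 ± 2.41 and 7.92 ± 4.05) and Epyc (3.53 ± 1.07 and 3.94 ± 3.74). Among the 9 tested members only Bgn stood clear of its neighbour in this order, its lowest library lying above the highest library of Fmod. Fmod and Ogn overlapped in their ranges over the 6 libraries, as did Ogn and Prelp, Prelp and Aspn, Aspn and Lum, Lum and Dcn, Dcn and Omd, and Omd and Epyc. The place of Dcn depends on the transcript length used: its longest annotated transcript has 4692 bases, and with the mean length of its annotated transcripts its level over all libraries was 52.0 in place of 19.9 CPM per kilobase, above those of Aspn and Lum.

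The summed level of the 10 members was lower in every H3K9M library than in H3WT replicates 1 and 4. It was 5374, 4468 and 5066 CPM in H3K9M replicates 1, 3 and 5, and 6619, 5176 and 6939 CPM in H3WT replicates 1, 2 and 4, so the groups overlapped through H3WT replicate 2. Without Bgn, a sum that was not planned beforehand, the values were 1689, 1543 and 1444 CPM in H3K9M, against 2784, 2137 and 3218 CPM in H3WT. Here all 3 H3K9M libraries lay below all 3 H3WT libraries. Of the members in the sum without Bgn, only Prelp had groups that did not overlap, so the separation does not describe each member. No test is given for these sums, because the members were chosen with earlier results known. Most of the gap lay in Fmod and Prelp. Prelp made up 2.40%, 1.88% and 2.72% of the summed level in H3K9M against 10.3%, 6.45% and 10.9% in H3WT. Fmod made up 16.4%, 12.8% and 12.4% against 25.3%, 15.4% and 21.5%. The share of Bgn was correspondingly 65.5% to 71.5% in H3K9M and 53.6% to 58.7% in H3WT.

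**Figure D1:**
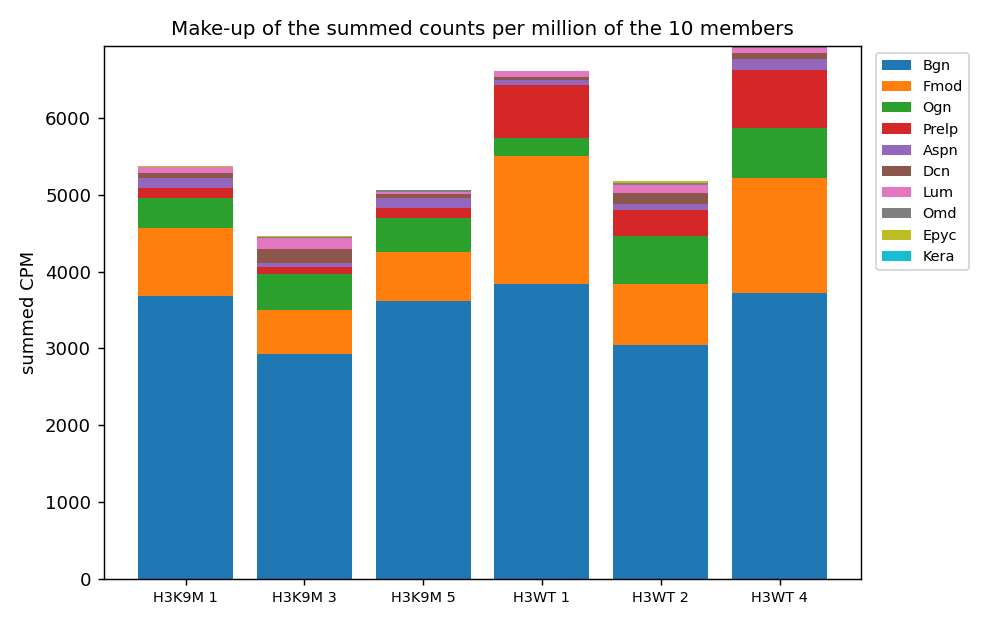
Summed CPM of the 10 members (y axis) in each of the 6 libraries (x axis), with 1 colour per gene. Bgn fills most of every bar, and the Prelp segment is thin in the 3 H3K9M libraries (1.88% to 2.72% of the sum) and thicker in the 3 H3WT libraries (6.45% to 10.9%).

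Prelp encodes prolargin, which links collagen to the heparan sulfate of basement membranes and other matrices. It was the member with the greatest difference between the groups. It had 129, 83.8 and 138 CPM in H3K9M replicates 1, 3 and 5 and 683, 334 and 756 CPM in H3WT replicates 1, 2 and 4. The groups did not overlap: the highest H3K9M library lay well below the lowest H3WT library, which was replicate 2. The mean level was 117 ± 29.0 CPM in H3K9M, against 591 ± 225 CPM in H3WT, giving a log2 fold change of -2.34 (SE 0.34, 95% interval -3.14 to -1.54), or a level 5.05-fold higher in H3WT. The unadjusted p was 0.000204, the rank 13 of 13761 genes, and the adjusted p was 0.17 (edgeR quasi-likelihood test, Benjamini-Hochberg adjustment over all tested genes), so the difference did not pass the threshold of 0.05.

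Fmod encodes fibromodulin, which coats type I and type II collagen fibrils and takes part in their crosslinking. It had 881, 572 and 630.1 CPM in H3K9M replicates 1, 3 and 5 and 1673, 795 and 1494 CPM in H3WT replicates 1, 2 and 4. H3WT replicates 1 and 4 stood above every H3K9M library, while H3WT replicate 2 lay below H3K9M replicate 1, so the groups overlapped. The mean was 695 ± 164 CPM against 1321 ± 464 CPM, giving a log2 fold change of -0.93 (SE 0.30, 95% interval -1.61 to -0.24), with an unadjusted p of 0.0147 and an adjusted p of 0.294 (edgeR). The ratio of Fmod to Prelp CPM was 6.82, 6.83 and 4.57 in H3K9M and 2.45, 2.38 and 1.98 in H3WT, so Prelp was lower in H3K9M relative to Fmod in every library.

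**Figure D2:**
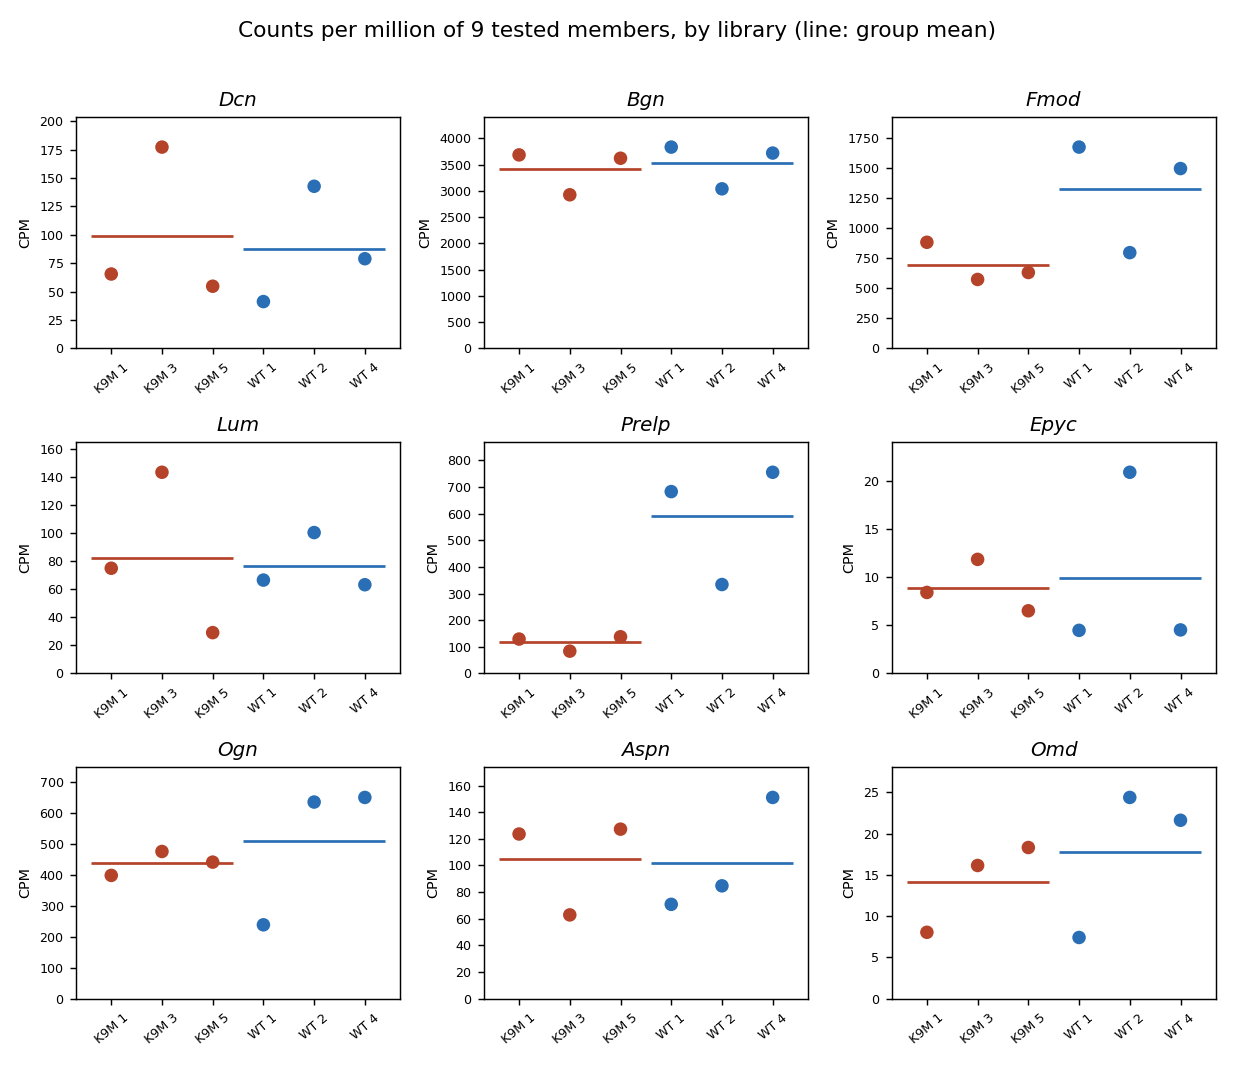
CPM (y axis, linear, from 0) of the 9 tested members in the 3 H3K9M libraries (red) and the 3 H3WT libraries (blue), with a line at each group mean. Prelp is the panel in which the colours do not overlap (83.8 to 138 against 334 to 756 CPM), and in the Dcn panel H3K9M replicate 3 and H3WT replicate 2 are the highest points.

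Against the whole table, 0 of the 9 tested members passed an adjusted p of 0.05, as did 0 of all 13761 genes (0%). DESeq2's Wald test called 365 genes. At an unadjusted p under 0.05 there were 2 members, Prelp and Fmod, both lower in H3K9M, where 1677 of all tested genes (12.2%) lay under that p and 5.77% did so as lower. Groups that did not overlap occurred in 1 member, Prelp, against 19.4% of all genes, and 8.68% of all genes with H3K9M below. Of the 9 members, 6 had a negative and 3 a positive log2 fold change, with a median of -0.16, beside 50.4% negative and a median of -0.003 over all tested genes.

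**Figure D3:**
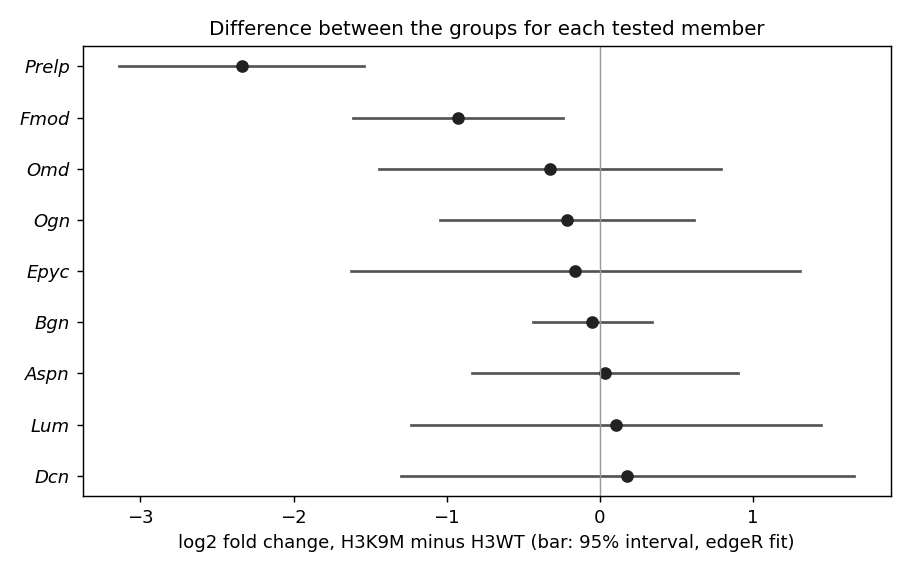
Log2 fold change, H3K9M minus H3WT (x axis), for each tested member, with the 95% interval from the edgeR fit as a bar. The intervals of Prelp (-3.14 to -1.54) and Fmod (-1.61 to -0.24) lie below 0 before any adjustment for multiple testing, and the other 7 include 0.

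Both calls depended on the tool and on the libraries that stood apart. With DESeq2, which called 2.38% of the genes it tested, Prelp (log2 fold change -2.34, adjusted p 5.02e-12) and Fmod (-0.93, adjusted p 0.0297) passed. Without H3WT replicate 2, where edgeR called 0.639% of genes, Prelp passed (-2.61, adjusted p 0.0129) and Fmod did not (-1.18, adjusted p 0.0606). Leaving out both H3K9M replicate 3 and H3WT replicate 2, an alternative chosen after the data were seen, edgeR called 2.19% of genes, among them Prelp (-2.42, adjusted p 0.00085) and Fmod (-1.06, adjusted p 0.0284). Within that pair of libraries, Prelp was 83.8 CPM in H3K9M replicate 3 and 334 CPM in H3WT replicate 2, which is 3.99-fold, and in the other 4 libraries the mean was 133 CPM in H3K9M, against 719 CPM in H3WT, which is 5.39-fold. For Fmod the corresponding ratios were 1.39 and 2.10. For both genes the H3K9M value was lower within the pair, and the H3K9M mean among the other 4 libraries. The pair was picked from the data, holds 1 library of each group and is not matched by the labels. On the second principal component its libraries lay at opposite ends (39.8 and -71.5). These ratios were not tested.

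**Figure D4:**
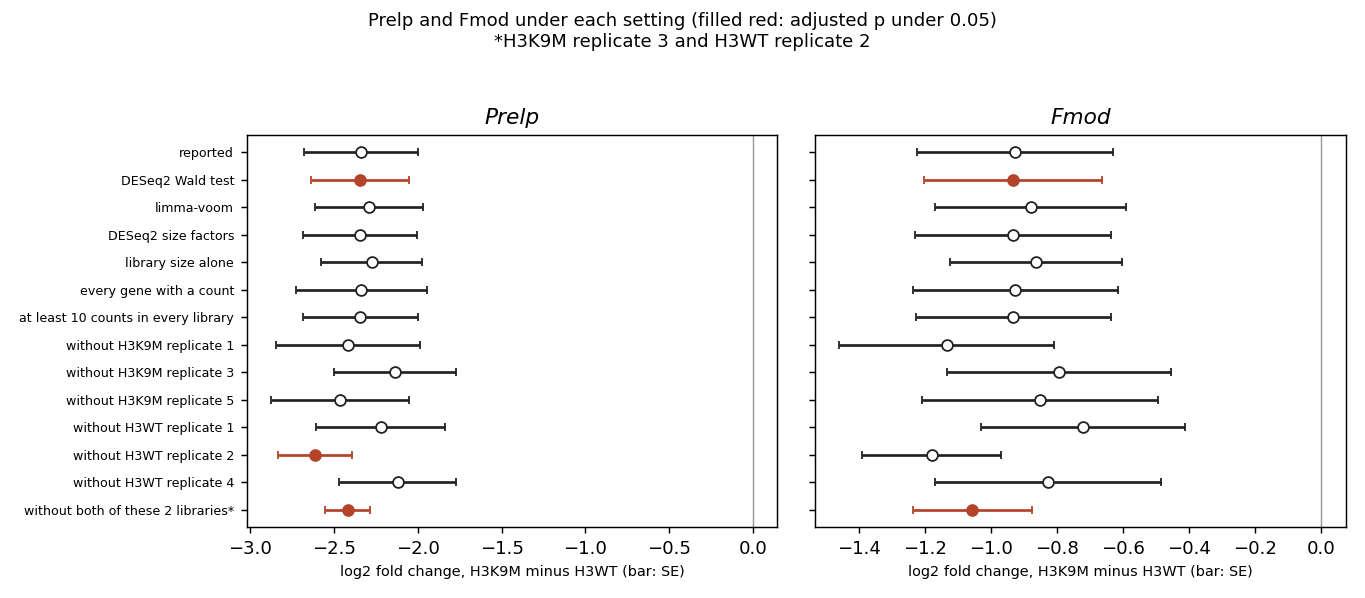
Log2 fold change of Prelp (left) and Fmod (right), H3K9M minus H3WT (x axis, bars are SE), under each setting (y axis). Every point lies below 0; filled red points have an adjusted p under 0.05, which for Prelp are DESeq2, the fit without H3WT replicate 2 and the fit without both libraries, and for Fmod DESeq2 and the fit without both libraries.

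Prelp and Fmod are neighbours on chromosome 1, and their promoters are shown because they are the members that were lowest in H3K9M relative to H3WT, with that of Bgn, which hardly differed, beside them. Genes and sequences are placed on RefSeq GRCm38.p6, the assembly that matches the mm10 build named in the submitters' processing notes. Prelp spans chr1:133910304-133930102 on the minus strand and Fmod chr1:134037254-134048280 on the plus strand. Each sequence holds the 250 bases before the RefSeq start of a transcript, 5′ to 3′ on the strand of the gene. Capitals mark any match on either strand to 5 motifs: the TATA box TATAAA, the SOX core AACAAT, the E-box CANNTG, the AP-1 site TGANTCA and the GC box GGGCGG.
Prelp, chr1:133921402-133921651, minus strand: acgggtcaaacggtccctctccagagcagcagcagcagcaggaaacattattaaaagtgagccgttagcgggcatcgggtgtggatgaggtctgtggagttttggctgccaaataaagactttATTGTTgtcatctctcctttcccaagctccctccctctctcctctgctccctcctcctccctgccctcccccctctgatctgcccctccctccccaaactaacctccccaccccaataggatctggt
Fmod, chr1:134037004-134037253, plus strand: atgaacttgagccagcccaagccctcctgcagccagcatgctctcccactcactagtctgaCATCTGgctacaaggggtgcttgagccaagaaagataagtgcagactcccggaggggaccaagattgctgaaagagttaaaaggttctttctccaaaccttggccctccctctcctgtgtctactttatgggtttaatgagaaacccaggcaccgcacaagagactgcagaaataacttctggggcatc
Bgn, chrX:73483351-73483600, plus strand: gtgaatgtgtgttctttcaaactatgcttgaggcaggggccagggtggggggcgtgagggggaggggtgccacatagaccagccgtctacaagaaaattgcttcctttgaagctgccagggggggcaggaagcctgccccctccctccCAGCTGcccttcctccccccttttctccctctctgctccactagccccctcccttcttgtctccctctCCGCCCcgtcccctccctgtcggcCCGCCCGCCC
The Prelp window held 1 SOX core, which starts 127 bases before the start, and none of the other motifs. The Fmod window held 1 E-box, 189 bases before the start. The Bgn window held 1 E-box at 102 bases and 3 GC boxes, the last 2 of which overlap. Among the 32851 RefSeq windows of the same length, 9.42% held the SOX core, 66.2% an E-box, 32.7% a GC box, 12.4% the TATA box and 6.75% the AP-1 site. CpG dinucleotides numbered 5 in the Prelp window, 2 in that of Fmod and 7 in that of Bgn, against a median of 6 over all windows. A match describes the letters only. The RefSeq gene of Prelp reaches beyond that start, so its window lies inside the annotated gene.

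The tested genes on either side of this locus were compared with the members. Optc, which encodes opticin, another protein of the family, starts 0.616 kilobases from the end of Prelp and was measured at 0.670, 0.821 and 0.612 CPM in H3K9M, against 2.53, 0.363 and 4.01 CPM in H3WT. On the log2 scale H3K9M differed from H3WT by -1.70 (SE 0.93, adjusted p 0.491, edgeR), with overlapping groups and few reads (159 counts over the 6 libraries). Atp2b4, a plasma membrane calcium pump 109 kilobases beyond Prelp, differed by -1.09 (log2, SE 0.51, adjusted p 0.444). On the other side, Btg2, an antiproliferative gene 26.6 kilobases from Fmod, had -0.14 (SE 0.30, adjusted p 0.895). The 4 tested genes that RefSeq places from Atp2b4 to Fmod all had negative estimates, none of which passed the test. Prelp and Fmod are among these 4, and the locus is shown because they were low, so their signs add nothing here. For Optc and Atp2b4 the groups overlapped, and 50.4% of all tested genes had negative estimates. Btg2 lay near 0. Chil1, a chitinase-like gene 133.9 kilobases from Fmod, had -0.65 (SE 0.97, adjusted p 0.841) on 104 counts. Gm15851 is annotated in GENCODE M21 on the opposite strand over part of a Prelp exon, and whether reads were counted by strand is not stated.

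**Figure D5:**
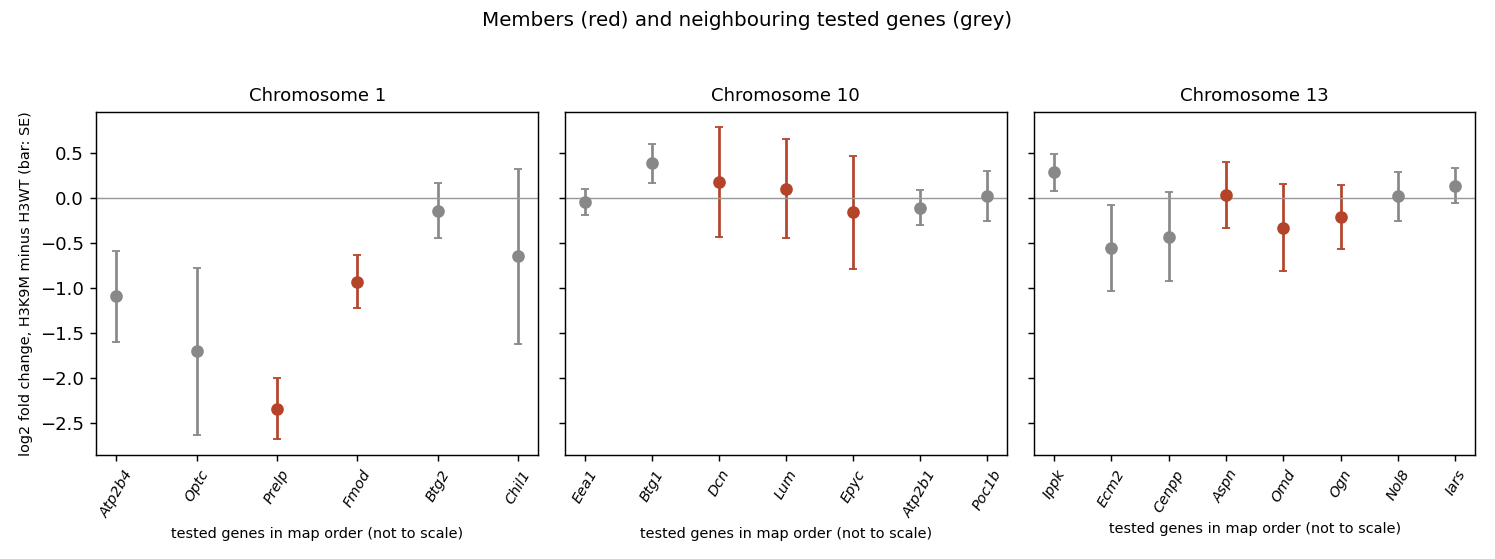
Log2 fold change, H3K9M minus H3WT (y axis, bars are SE), of members (red) and neighbouring tested genes (grey) in map order on chromosomes 1, 10 and 13 (x axis, not to scale; Cenpp spans the members on chromosome 13). On chromosome 1 the estimates from Atp2b4 to Fmod lie between -2.34 and -0.93, and members on chromosomes 10 and 13 lie between -0.33 and 0.18.

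The class I members showed no difference that passed the test. Bgn encodes biglycan, which carries chondroitin or dermatan sulfate and can signal through Toll-like receptors, and lies on the X chromosome (chrX:73483601-73495936). It had 3685, 2925 and 3622 CPM in H3K9M replicates 1, 3 and 5 and 3834, 3039 and 3720.35 CPM in H3WT replicates 1, 2 and 4. In both groups it was lowest in the library at the high end of the first principal component, and the groups overlapped almost completely. The log2 fold change was -0.05 (SE 0.17, 95% interval -0.44 to 0.34, adjusted p 0.937, edgeR), and its sign turned with library size alone as the scaling (0.0067). With the smallest range of all tested members, the highest library was 1.31-fold above the lowest.

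Dcn encodes decorin, which binds collagen fibrils and transforming growth factor beta. It had 65.4, 177 and 54.7 CPM in H3K9M replicates 1, 3 and 5 and 41.2, 143 and 78.9 CPM in H3WT replicates 1, 2 and 4. The 2 highest libraries belonged to different groups, and the log2 fold change was 0.18 (SE 0.61, 95% interval -1.30 to 1.66, adjusted p 0.937, edgeR). It was -0.54 without H3K9M replicate 3, -0.16 without H3WT replicate 1 and 0.74 without H3WT replicate 2, so its sign turned when either of the first 2 libraries was left out. With both H3K9M replicate 3 and H3WT replicate 2 left out it was 0.01. The ratio of Bgn to Dcn CPM ran from 16.5 in H3K9M replicate 3 to 93.2 in H3WT replicate 1. Aspn encodes asporin, which has a stretch of aspartate residues and competes with decorin for collagen. It had 124, 62.9 and 127 CPM in H3K9M, against 70.8, 84.7 and 151 CPM in H3WT, and the log2 fold change was 0.03 (SE 0.37, 95% interval -0.83 to 0.90, adjusted p 0.982).

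Lum, Kera and Epyc lie beside Dcn on chromosome 10, within chr10:97479500-97681908. Lum encodes lumican, a keratan sulfate protein that limits fibril width. It had 75.1, 144 and 29.1 CPM in H3K9M replicates 1, 3 and 5 and 66.6, 101 and 63.3 CPM in H3WT replicates 1, 2 and 4, giving a log2 fold change of 0.10 (SE 0.55, 95% interval -1.23 to 1.44, adjusted p 0.963, edgeR). The sign turned with limma-voom (-0.15) and without H3K9M replicate 3 (-0.55). The H3WT libraries lay inside the range of the H3K9M libraries. Epyc encodes epiphycan, a protein of growth cartilage. It had 8.44, 11.9 and 6.53 CPM in H3K9M, against 4.49, 21.0 and 4.54 CPM in H3WT, giving a log2 fold change of -0.16 (SE 0.63, 95% interval -1.63 to 1.31, adjusted p 0.949). H3WT replicate 2 alone carried the H3WT mean above that of H3K9M, and the fit without that library gave 1.00 (adjusted p 0.216). Kera had 1, 9 and 0 reads in H3K9M replicates 1, 3 and 5 and 0 reads in each H3WT library. A count of 0 allows up to 0.153 CPM in H3K9M replicate 5 and 0.156 to 0.177 CPM in the H3WT libraries, for counting error only. Keratocan transcripts were therefore above the floor of 3 counts in H3K9M replicate 3 only.

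Ogn, Omd and Aspn lie side by side on chromosome 13, within chr13:49544443-49624501 and on the strand opposite to Cenpp, whose introns hold Ogn and Omd. Ogn encodes osteoglycin, also called mimecan, which regulates collagen fibril growth. It had 398, 475 and 440.35 CPM in H3K9M replicates 1, 3 and 5 and 238, 634 and 649 CPM in H3WT replicates 1, 2 and 4. The H3K9M libraries lay close together (SD 38.6 CPM) and inside the range of the H3WT libraries (SD 233 CPM), and the log2 fold change was -0.21 (SE 0.35, 95% interval -1.04 to 0.62, adjusted p 0.86, edgeR). Omd encodes osteomodulin, which binds bone mineral and collagen. It had 8.04, 16.1 and 18.3 CPM in H3K9M, against 7.41, 24.4 and 21.6 CPM in H3WT, giving a log2 fold change of -0.33 (SE 0.48, 95% interval -1.44 to 0.79, adjusted p 0.836). Replicate 1 was the lowest library of its group for both genes. Cenpp had 550 counts over the 6 libraries, against 51874 for Ogn, 11097 for Aspn and 1782 for Omd. An exon of Aspn overlaps an exon of Cenpp in GENCODE M21.

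The members thus differed from library to library in more than 1 way. Dcn, Lum and Epyc were each highest in H3K9M replicate 3 and H3WT replicate 2, at 2.67, 2.09 and 2.74 times the mean of the other 4 libraries. Prelp, Fmod and Bgn were lowest, within each group, in that same pair of libraries, at 0.49, 0.585 and 0.803 times the mean of the other 4. The 3 genes of chromosome 13 did not share 1 order: Aspn was lower in that pair (0.624 times) and Ogn (1.29 times) and Omd (1.46 times) were higher. These are descriptions of the 6 libraries, and no test was made on a pair picked from the data. The variation between replicates estimated by edgeR (biological coefficient of variation) was widest for Epyc (0.539), Dcn (0.508) and Lum (0.463) and narrowest for Bgn (0.187), beside a median of 0.239 over all tested genes. The 95% intervals of Dcn, Lum, Epyc, Ogn and Omd all include a difference of the size estimated for Fmod, which itself did not pass the test.

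Of 8 further genes of the family or close to it, 7 were tested, and all 7 had negative estimates, with a median log2 fold change of -1.14. No gene passed the test, 2 had an unadjusted p under 0.05 and 2 had groups that did not overlap, in both cases Chadl and Podn. Over all tested genes the corresponding shares, lower in H3K9M, were 5.77% and 8.68%. Chadl, chondroadherin-like, which limits collagen fibril formation, had 3.01, 3.38 and 2.60 CPM in H3K9M replicates 1, 3 and 5 and 5.89, 7.37 and 12.2 CPM in H3WT replicates 1, 2 and 4 (log2 change of -1.50, SE 0.38, adjusted p 0.227, edgeR). Podn, podocan, named here after its values were seen, had 5.36, 4.93 and 6.68 CPM against 12.8, 7.42 and 17.1 CPM (-1.14, SE 0.35, adjusted p 0.28). Both are low next to Prelp and Fmod, and in both every H3K9M library lay below every H3WT library.

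The collagens that these proteins bind were listed next. All 16 were tested, 15 had negative estimates, the median was -0.42 and 0 passed the test. Lower in H3K9M were 3 under an unadjusted p of 0.05 and 3 with groups that did not overlap. Over all tested genes these shares were 5.77% and 8.68%. Col14a1, a fibril-associated collagen, had the smallest p, with 6.43, 3.87 and 4.03 CPM in H3K9M, against 45.8, 12.3 and 39.6 CPM for H3WT (log2 change relative to H3WT of -2.78, SE 0.50, adjusted p 0.17, edgeR). As with Prelp, H3WT replicate 2 was the lowest H3WT library and still above all H3K9M libraries. Col6a3, of type VI collagen, was the only positive estimate (log2 change of 0.46, SE 0.34, adjusted p 0.631).

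Enzymes that build the chains were divided by chain. For the linkage region and the chondroitin and dermatan sulfate chains carried by decorin and biglycan, 20 of 21 genes were tested. Of these, 18 had negative estimates, the median was -0.24 and 0 passed the test. An unadjusted p under 0.05 was found for 4 and groups that did not overlap for 5, all lower in H3K9M. The shares over all tested genes were 5.77% and 8.68%. Chpf2, a chondroitin polymerizing factor, had the smallest p, with 158, 148 and 147 CPM in H3K9M, against 200.1, 208 and 179 CPM for H3WT (log2 change relative to H3WT of -0.38, SE 0.11, adjusted p 0.279, edgeR). Chst3, a chondroitin sulfotransferase, had the smallest p among the positive estimates (log2 change of 0.36, SE 0.51, adjusted p 0.832, edgeR). For keratan sulfate, the chain of fibromodulin and lumican, 9 of 11 genes were tested, 7 had positive estimates, the median was 0.01 and 0 had an unadjusted p under 0.05. Chst5, a keratan sulfate sulfotransferase, had the smallest p of these (log2 change of 1.32, SE 0.78, adjusted p 0.527, edgeR), and St3gal2, a sialyltransferase, the smallest among the negative estimates (-0.17, SE 0.14, adjusted p 0.651).

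Proteases known to process or degrade these cores showed both directions. Of 12, 10 were tested, 7 with negative and 3 with positive estimates, with a median of -0.12 and 0 past the test. At an unadjusted p under 0.05 there were 1 lower and 2 higher, where 12.2% of all tested genes lay under that p. Htra1, a secreted serine protease that cleaves decorin, biglycan and fibromodulin, had 463, 351 and 309.5 CPM in H3K9M, against 175, 197 and 212 CPM for H3WT (log2 change relative to H3WT of 0.94, SE 0.17, adjusted p 0.17, edgeR). Mmp3, stromelysin, had 0.804, 0.773 and 1.89 CPM against 5.45, 7.63 and 3.0 CPM (-2.20, SE 0.59, adjusted p 0.239). In both genes the groups did not overlap, in opposite directions. Bmp1, the protease that removes the propeptide of biglycan, had 162 ± 17.8 CPM in H3K9M, against 179 ± 38.3 CPM in H3WT (-0.14, SE 0.17, adjusted p 0.794).

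Growth factors and receptors known to bind the cores made up a list of 15, all tested, with 9 negative and 6 positive estimates. The median was -0.28 and 0 passed the test. At an unadjusted p under 0.05 there was 1 in each direction, where 12.2% of all tested genes lay under that p. Met, the receptor of hepatocyte growth factor, which decorin binds, had 26.1, 58.4 and 42.8 CPM in H3K9M, against 13.6, 27.3 and 11.3 CPM for H3WT (log2 change relative to H3WT of 1.28, SE 0.41, adjusted p 0.296, edgeR), with overlap through H3WT replicate 2. Thbs1, thrombospondin 1, had 16882 ± 5871 CPM in H3K9M, against 28853 ± 8922 CPM in H3WT (-0.77, SE 0.34, adjusted p 0.41).

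Markers of other cell types were set beside Prelp and Fmod. All 13 chondrocyte markers had negative estimates, with a median of -1.08, and in none were the groups separate. Of these, 2 (Col9a1 and Col9a2) had an unadjusted p under 0.05 (edgeR), where 5.77% of all tested genes did so as lower. Col2a1, Col9a1, Col9a2 and Col11a2 were also in the list of collagens, so the 2 lists are not independent. Col2a1 made up most of the summed level of the 13 markers. In H3WT replicate 1, which had the lowest sum of all libraries, it was 4913 of the 6083 CPM. Single markers did not all share that order, and Sox9 was lowest in H3K9M replicate 1 (114 CPM). H3WT replicate 1 had the second highest Prelp (683 CPM) and the highest Fmod (1673 CPM). This is 1 library, and whether Prelp or Fmod follow the chondrocyte markers was not tested. Groups did not overlap, in either direction, in 19.4% of all tested genes. Of 8 skeletal muscle markers 4 were tested and 0 passed, and for 3 of them (Myod1, Des and Myh3) every H3K9M library lay above every H3WT library. Their summed level over the 8 genes was 155, 227 and 21.2 CPM in H3K9M replicates 1, 3 and 5 and 11.1 to 31.7 CPM in H3WT. Myf5 was at 0 in all libraries and Myog in the H3WT libraries. Acta1 made up most of the sums of H3WT replicates 1 and 4, and in H3K9M replicate 5, whose sum lay within the range of H3WT, Myod1 (4.29 CPM), Des (8.78 CPM) and Myh3 (1.73 CPM) were still above every H3WT library. Of 5 tendon markers, all tested, 3 had positive and 2 negative estimates and 0 passed. Among them Scx, a tendon transcription factor, had 85.1 ± 8.69 CPM in H3K9M, against 45.3 ± 10.1 CPM for H3WT (log2 change relative to H3WT of 0.91, SE 0.19, adjusted p 0.19, edgeR), and its groups were separate. Mkx, another tendon transcription factor, was below every H3WT library in all H3K9M libraries (-0.46, SE 0.24, adjusted p 0.477), and Fibin had -0.92 (SE 0.51) with overlapping groups. The summed level of the tendon markers was 109.6 to 226 CPM in H3K9M and 119 to 148 CPM in H3WT. Fibroblast markers summed to 12196 to 30596 CPM in H3K9M and 9981 to 34935 CPM in H3WT, and osteoblast markers to 562 to 2450.3 CPM and 753 to 1103 CPM. Collagen transcripts (Col1a1, Col1a2 and Col3a1) made up most of the first sum and Spp1 most of the other. Of 9 tested fibroblast markers 0 passed and 2 had separate groups: S100a4, a calcium-binding protein, with every H3K9M library higher (586 ± 67.6 CPM against 291 ± 48.2 CPM, adjusted p 0.17, edgeR), and Dpt (dermatopontin), with every H3K9M library lower (log2 change relative to H3WT of -1.05, SE 0.78, adjusted p 0.627). Of 7 tested osteoblast markers 0 passed, and Ibsp, bone sialoprotein, had separate groups, with 1.93 ± 1.09 CPM in H3K9M and 8.50 ± 3.27 CPM in H3WT (-2.13, SE 0.54, adjusted p 0.227). Macrophage and blood markers summed to 6.16 to 15.2 CPM in H3K9M and 3.37 to 4.32 CPM in H3WT, with every H3K9M sum above every H3WT sum. Most of the highest sum was Cd68, a lysosomal protein of macrophages, with 12.8 CPM in H3K9M replicate 3 (log2 change relative to H3WT of 1.75, SE 0.76, adjusted p 0.411, edgeR, groups overlapping). Endothelial markers summed to 0.306 to 0.628 CPM and 0.104 to 0.825 CPM. Ptprc, Adgre1, Hbb-bs, Cdh5, Emcn and the fibroblast marker Pi16 were at 0 in all libraries. The part of chondrocytes and of these other cell types in the differences of Prelp and Fmod was not tested.

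The genes whose pattern over the 6 libraries was closest to that of Prelp, the member with the widest range, were Adm (adrenomedullin), Islr (a leucine-rich repeat protein of mesenchymal cells) and Id4 (an inhibitor of helix-loop-helix factors). Likeness was the greatest difference at any library between 2 genes' log2 CPM, each centred on its own mean, among 9450 genes with a mean of at least 10 CPM. It was 0.40 for Adm, 0.47 for Islr and 0.51 for Id4. Adm had 43.1, 17.2 and 40.6 CPM in H3K9M, against 157, 116 and 154 CPM in H3WT, and Islr had 33.7, 22.3 and 20.6 CPM against 108, 74.6 and 169 CPM. For Bgn, the member with the narrowest range, the closest were Rap1gds1 (0.05), Mmgt1 (0.05) and Fem1b (0.05). Within 0.5 of Bgn lay 5438 of the 9450 genes, against 2 for Prelp, so likeness to Bgn was common among the genes searched.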

How the data were processed

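Polyadenylated RNA was sequenced from 6 libraries. The deposited table holds raw read counts per gene symbol, which the authors did not normalize, as judged from whole numbers with unequal totals. The submitters' processing notes name HISAT2, featureCounts, DESeq2 and mm10; versions, annotation and strand setting are not given in the sources used here. Columns were assigned to samples by their titles.

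The fit used edgeR 4.0.16 (R 4.3.3): filterByExpr, TMM scaling, robust quasi-likelihood fit with genotype as the only term, and Benjamini-Hochberg adjustment over all tested genes (threshold 0.05). CPM values are TMM-scaled, given with the SD over libraries, and SE is the log2 fold change divided by the square root of F. Alternatives were DESeq2 1.42.0, limma-voom (limma 3.58.1), other scalings and filters, and leaving out libraries. The scripts were tested on simulated counts drawn independently for each gene, without patterns shared between genes such as the first principal component. That test therefore cannot tell why edgeR and DESeq2 called different numbers of genes here.

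The members and lists were chosen with earlier results of these data known. All members are named; of each list of related genes, the gene with the smallest p in each direction; marker genes and Bmp1 were named after their values were seen. In 4 cases a listed symbol was matched to an older symbol of the table through RefSeq. Transcript lengths came from GENCODE M21, gene positions and promoters from RefSeq GRCm38.p6; the promoter table was matched for 8 of the 10 members. Only the longest annotated transcript of each member was searched by blastn 2.17.0. None shared 90% identity over 200 bases with another gene, except Prelp with Gm15851 and Epyc with Gm10754, which overlap them on the opposite strand. Counting limits cover counting error only (floor 3 counts).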

Additional observations from a re-analysis of the deposited data

How the results depend on the processing

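No paired analysis was possible because the groups share only replicate number 1. The count of genes with an adjusted p under 0.05 was 0 in the reported edgeR fit and moved to 365 with DESeq2, to 36 when all genes with any count were tested, and to 302 with both H3K9M replicate 3 and H3WT replicate 2 left out (chosen after the data were seen). Leaving out 1 library at a time gave 0 to 91 genes, with 91 without H3WT replicate 2. The count of members past the threshold went from 0 to 2 with DESeq2 and to 2 with both libraries left out, and ran from 0 to 1 when 1 library was left out. Both counts stayed at 0 with limma-voom, with either other scaling, with the filter of 10 counts per library and at an adjusted p under 0.01. The causes were not tested.

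Prelp, Fmod and Omd kept a negative sign in all 13 alternatives, over -2.61 to -2.12, -1.18 to -0.72 and -0.70 to -0.02. The summed CPM had a log2 ratio of -0.33, and -0.44 to -0.25 when 1 library was left out. Signs turned for Lum (-0.15) and Epyc (0.17) with limma-voom, for Bgn with library size alone (0.0067), and for Lum (-0.31) and Epyc (0.74) with both libraries left out. Over the fits without 1 library, log2 fold changes ran from -0.54 to 0.74 for Dcn, -0.14 to 0.0597 for Bgn, -0.55 to 0.52 for Lum, -0.51 to 1.00 for Epyc, -0.17 to 0.43 for Aspn and -0.55 to 0.0067 for Ogn. Levels per kilobase with the mean transcript length rose by more than the SD over all 6 libraries for Dcn, Bgn and Fmod (52.0, 2374 and 552). That SD includes the difference between the groups, which was large for Prelp, whose level rose from 97.9 to 159 CPM per kilobase. The 95% intervals of Dcn, Lum and Epyc span over 2-fold in both directions.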
